A study of Mus musculus with 10 samples.

Results

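Transcripts of the mitochondrial chromosome were described in the RNA-seq gene counts of a study of mouse macrophages. The members were all rows of the count table whose gene name starts with mt-, which gave 37 of 56980 rows. By the table's own gene types they were 2 ribosomal RNAs, 22 transfer RNAs and 13 protein-coding genes, the full set known for a mammalian mitochondrial genome. The KO libraries came from mice labelled as lacking Jaml in macrophages, and the WT libraries from mice with Jaml intact, 5 libraries each. Jaml encodes the junctional adhesion molecule-like protein. All cells, KO and WT, were first exposed to lipopolysaccharide (LPS, 100 ng/ml, 8 h) and afterwards to ATP (5 mM, 30 min), a known way to prime and activate the NLRP3 inflammasome. The titles call the KO group a macrophage knockout, while its genotype tag calls it a knockdown. The labels name neither a Cre driver nor the strain, the age of the mice, the tissue the macrophages came from, or whether animals were pooled. Nor do they state whether each library is a different animal or culture. The spread behind every p-value is thus that of these 10 preparations and could be technical. Untreated cells were not analysed here.

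The count columns of the KO group are headed SI, a term no label explains, and are called KO here by elimination, WT being the only other group. Every direction below rests on that assignment. Jaml itself had 2 counts in KO 4, 2 counts in WT 1 and 0 in the other 8 libraries, under a floor of 3 counts, so it could not check the labels. Libraries held 19319512 to 22766319 counts, and 3 counts corresponded to 0.132 to 0.155 CPM (counts scaled to the same library total). This floor covers counting error only. KO 1 and KO 3 stood apart from the other libraries on the second principal component (27.6 and 37.6, against -16.6 to 4.32 in the other 8), so counts of calls were repeated without them. Summed macrophage markers were at 22086 to 24117 CPM in KO and 23179 to 24646 CPM in WT, and of these 8 markers 2 rose and 2 fell. Summed markers of some other cells differed between genotypes. The summed level of 6 mast cell markers was 4.27 to 5.44 CPM in KO and 7.48 to 13.5 CPM in WT, that of 5 neutrophil markers 19.8 to 23.6 CPM in KO and 12.6 to 16.3 CPM in WT, and that of 3 endothelial markers 10.3 to 12.2 CPM in KO and 22.8 to 28.7 CPM in WT. Of those tested, 3 of 4 mast cell and 1 of 2 endothelial markers fell and the 1 neutrophil marker rose. The summed level of 7 mesothelial and fibroblast markers was 585 to 748 CPM in KO and 546 to 607 CPM in WT, ranges that overlapped, and 3 of them rose and 2 fell. Among all genes tested, 29.1% passed, so calls in these short lists need that share beside them. Cd3e, Trac, Mpo and Xcr1 did not reach 3 counts in any library. The part of these cells in the results below was not tested.

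Mitochondrial DNA is transcribed from both strands into long RNAs that span many genes. Transfer RNAs lie between most of the other genes, and their excision by RNase P and ELAC2 frees the ribosomal RNAs and messengers, most of which then receive a poly(A) tail. The messengers encode core subunits of respiratory complexes I, III and IV and of ATP synthase, and the ribosomal RNAs build the mitochondrial ribosome that translates them. In macrophages, LPS is known to shift metabolism away from respiration, and mitochondrial DNA and reactive oxygen have been linked to NLRP3 activation.

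All 37 members lie on chromosome MT and had the same start and end in the deposited table as in GENCODE M21, an annotation of the older build GRCm38. The genes are packed closely: 9 pairs of members overlap, 3 of them on opposite strands, and 76 bases belong to 2 members. The longest overlap joins the 2 ATP synthase genes, which share a messenger. The shared bases are shown in capitals here because a read within them has no single gene (sequences from GENCODE M21 transcripts, GRCm38, plus strand, MT:7907-7969 for mt-Atp8 and MT:7927-7989 for mt-Atp6):
mt-Atp8: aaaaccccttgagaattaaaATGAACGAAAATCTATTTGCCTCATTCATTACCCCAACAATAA
mt-Atp6: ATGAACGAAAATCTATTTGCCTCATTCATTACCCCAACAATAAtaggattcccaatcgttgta

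The complex I genes mt-Nd4l and mt-Nd4, which also share a messenger, overlap by 7 bases, in capitals (plus strand, MT:10147-10173 and MT:10167-10193):
mt-Nd4l: caaaatctcaacctactacaATGCTAA
mt-Nd4: ATGCTAAaaattattcttccctcacta

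mt-Nd6, a complex I gene and the only messenger read from the opposite strand, overlaps the end of mt-Nd5 by 14 bases, in capitals and each on its own strand (MT:13532-13565, plus strand, for mt-Nd5 and MT:13552-13585, minus strand, for mt-Nd6). The strand setting of the counting is not given in the sources used here, so the 2 genes cannot be separated within these bases:
mt-Nd5: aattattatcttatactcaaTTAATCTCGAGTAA
mt-Nd6: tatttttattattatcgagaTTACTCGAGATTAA

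Of the 37 members, 25 were detected, meaning at least 3 counts in at least 1 library. These were both ribosomal RNAs, all 13 protein-coding genes and 10 of 22 transfer RNAs. Members together held 1.54% ± 0.0807 of the counts of a library in KO and 1.40% ± 0.124 in WT (SD, n = 5 each). The ranges, 1.44% to 1.62% in KO and 1.21% to 1.56% in WT, overlapped. Protein-coding members held most of this, 1.43% ± 0.0744 in KO and 1.32% ± 0.113 in WT. Ribosomal RNAs held 0.107% ± 0.0105 in KO and 0.0823% ± 0.0119 in WT, and transfer RNAs 0.00106% ± 8.06e-05 in KO and 0.00096% ± 0.000105 in WT. In bulk RNA, more mitochondrial RNA per cell and more cells rich in it cannot be told apart. How RNA was selected for the libraries is not given in the sources used here.

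Levels per length spread over a wide range and had a similar order in both genotypes. Values here are CPM, scaled by edgeR's TMM composition factors, per kilobase of gene length. mt-Co1, which encodes the catalytic subunit of cytochrome c oxidase (complex IV), stood first at 4308 ± 105 in KO and 4743 ± 364 in WT (SD, n = 5 each), and its lowest library lay above the highest of any other member. mt-Co2 followed at 2076 ± 113 in KO and 1939 ± 170 in WT. mt-Co3, the third complex IV subunit, and mt-Atp8, an accessory subunit of ATP synthase, came next. mt-Co3 had 1593 ± 80.1 in KO and 1474 ± 121 in WT, mt-Atp8 had 1552 ± 137 in KO and 1464 ± 157 in WT, and the libraries of the 2 genes overlapped in each genotype. mt-Nd1, a core subunit of complex I, lay below them at 995 ± 71.7 in KO and 847 ± 96.8 in WT.

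From mt-Cytb downwards many neighbours in the order overlapped, more of them in WT than in KO. mt-Cytb, the haem-bearing subunit of complex III, had 704 ± 30.7 CPM per kilobase in KO and 573 ± 44.2 in WT, and mt-Nd4, a proton-pumping subunit of complex I, 564 ± 36.5 in KO and 508 ± 56.9 in WT. The 2 genes did not overlap in KO and overlapped in WT. mt-Nd5, another proton-pumping subunit of complex I, had 428 ± 25.8 in KO and 431 ± 41.2 in WT. The large ribosomal RNA mt-Rnr2 had 435 ± 42.1 in KO and 394 ± 65.2 in WT, and mt-Nd2, also of complex I, had 378 ± 22.2 in KO and 334 ± 42.1 in WT. The small ribosomal RNA mt-Rnr1 had 353 ± 30.4 in KO and 247 ± 29.3 in WT. mt-Atp6, the proton-channel subunit of ATP synthase, had 304 ± 18.6 in KO and 268 ± 26.3 in WT. It lay far below mt-Atp8, although the 2 genes share a messenger, and the cause of that gap was not tested. mt-Nd3, a small complex I subunit, had 139 ± 17.4 in KO and 96.5 ± 12.2 in WT. mt-Nd6 was the lowest messenger, at 29.6 ± 4.28 in KO and 25.0 ± 4.03 in WT. Every library of the other messengers lay above those of mt-Nd6, except WT 3 for mt-Nd4l, which lay far below them at 0.17.

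**Figure D1:**
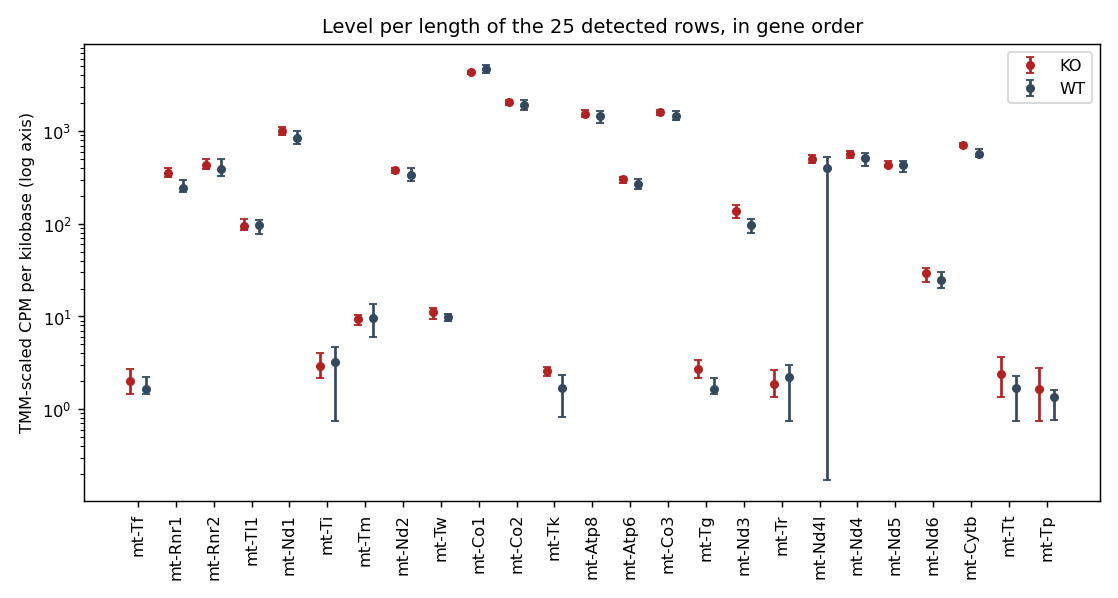
TMM-scaled CPM per kilobase (log axis) of the 25 detected members in gene order, KO left of WT for each; points are means of 5 libraries and bars run from the lowest to the highest library. mt-Co1 stood first at 4308 in KO and 4743 in WT, mt-Nd6 was the lowest messenger at 29.6 and 25.0, and the mt-Nd4l bar in WT reaches down to 0.17 because of WT 3.

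Transfer RNAs were close to absent from the table. They had 206 to 229 counts per KO library and 165 to 228 per WT library, all 22 genes together, and mt-Tl1, which decodes leucine, gave 71.6% of them. mt-Tl1 had 157, 148, 151, 143 and 166 counts in KO 1 to 5, and 149, 143, 116, 145 and 165 counts in WT 1 to 5. mt-Tw (tryptophan) had 14 to 18 counts in KO and 12 to 14 in WT, and mt-Tm (methionine) 13 to 16 counts in KO and 8 to 19 in WT. All 3 overlapped between genotypes. Their sequences are shown because they are the transfer RNAs with the most counts (GENCODE M21, GRCm38, plus strand, MT:2676-2750, MT:4950-5016 and MT:3845-3913; the capitals in mt-Tw mark the bases it shares with mt-Nd2):
mt-Tl1: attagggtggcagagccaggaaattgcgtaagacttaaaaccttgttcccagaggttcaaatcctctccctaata
mt-Tw: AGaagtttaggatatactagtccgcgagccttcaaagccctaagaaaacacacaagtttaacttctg
mt-Tm: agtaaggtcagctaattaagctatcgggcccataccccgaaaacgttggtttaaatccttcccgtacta

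The other detected transfer RNAs, mt-Tf, mt-Ti, mt-Tk, mt-Tg, mt-Tr, mt-Tt and mt-Tp, did not exceed 6 counts in any library. The remaining 12 never reached 3 counts, and 8 of these were at 0 in at least 1 library. mt-Ta had 1 count in 3 KO libraries and 0 in every WT library, which is under the floor in both genotypes. By strand, 9 of 14 plus-strand and 1 of 8 minus-strand transfer RNAs were detected. The low counts also varied little between libraries. The variance over the 10 libraries divided by the mean, which is 1 for pure counting error, was below 1 for 21 of 22 transfer RNAs, with a median of 0.378 and mt-Tl1 as the exception at 1.34. Among other genes with a mean of 1 to 5 counts, 36.4% of 4586 were below 1 and the median was 1.30, whereas all 11 transfer RNAs in that range were below 1, with a median of 0.341.

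Stretches of mitochondrial DNA have been copied into the nuclear genome during evolution, and such copies can take reads from the members. A search of the GENCODE M21 transcripts found 17 nuclear copies of 11 members, at 90% identity or more over at least 100 bases. Of these, 7 reached 99% identity over at least 200 bases, all on chromosome 1 and all annotated as unprocessed pseudogenes, and 5 of them had no mismatch in the aligned bases. Gm10925 matches 678 bases of mt-Atp6 exactly, and its count was 56.8% to 67.2% of the mt-Atp6 count. Gm28661 had 10.9% to 12.4% of the count of mt-Co2, Gm28437 9.63% to 10.9% of that of mt-Co3, and Gm28439 5.08% to 6.24% of that of mt-Nd4. With copies added, mt-Atp6 reached 489 ± 36.1 CPM per kilobase in KO and 434 ± 45.8 in WT, which placed it at position 9 of the order in both genotypes instead of 13 in KO and 12 in WT. How the counting treated reads that match several places is not given in the sources used here, so values of these members are uncertain.

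The other close copies differ from their member by 1 base. Gm28438 matches 345 bases of mt-Nd3 with the substitution T3C, and Gm29216 matches 483 bases of mt-Co1 with A1066T (the member's base first, positions counted from 1 at the start of the gene, then the copy's base). The differing base is in capitals in the members' own sequence (plus strand, MT:9459-9481 and MT:6373-6413):
mt-Nd3: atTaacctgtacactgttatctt
mt-Co1: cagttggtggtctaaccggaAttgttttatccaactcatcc

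Gm28438 had 7.95% to 11.6% of the mt-Nd3 count and Gm29216 1.78% to 2.29% of the mt-Co1 count. Gm10222 is an exact match to 294 bases of mt-Nd4l. mt-Nd4l had 1 count in WT 3, against 2662 to 3121 in the other WT libraries and 3068 to 3455 in KO. Whether this 1 count is a fault of the deposited table was not tested, and the WT mean and fold change of mt-Nd4l carry that doubt. mt-Nd4l held 0.943% to 1.03% of the mitochondrial counts of the other WT libraries. The mitochondrial total of WT 3, and the shares and ratios built on it, therefore carry the doubt as well. In the same library Gm10222 had 264 counts, against 317 to 376 in the other WT libraries, and elsewhere its count was 11.0% to 13.1% of that of mt-Nd4l. mt-Nd4, which shares a messenger with mt-Nd4l, was at 577 CPM in WT 3 and 694 to 793 CPM in the other WT libraries.

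**Figure D2:**
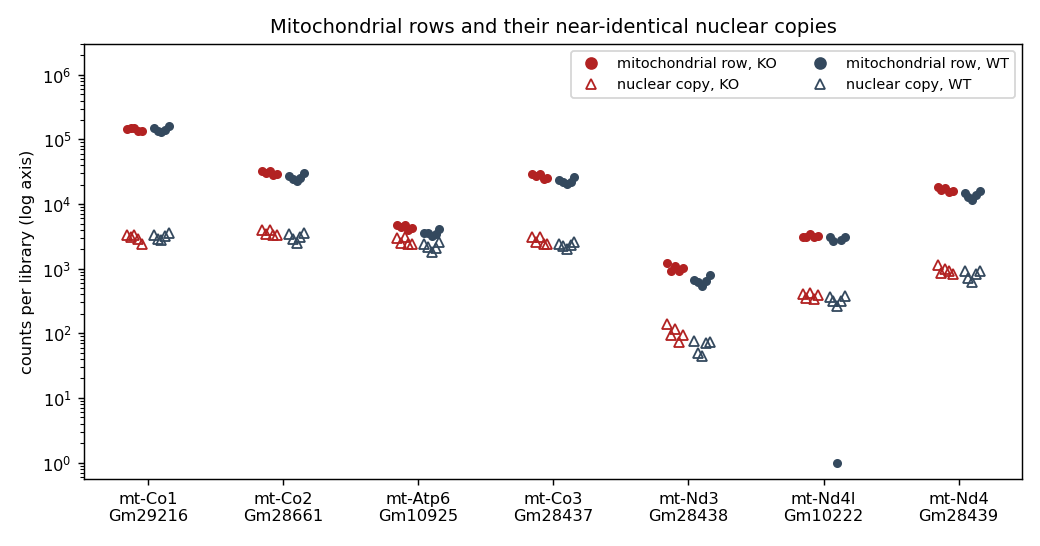
Counts per library (log axis) of 7 mitochondrial members (filled circles) and their close nuclear copies (open triangles), a point per library, KO left of WT. Each copy lies below its member in every library except WT 3 for mt-Nd4l, which had 1 count beside 264 of Gm10222, and the smallest distance is that of mt-Atp6 and Gm10925.

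Between genotypes, 18 members had enough counts to be tested, namely both ribosomal RNAs, mt-Tl1, mt-Tw, mt-Tm and all 13 protein-coding genes. In KO, 4 of 18 rose and 0 fell by edgeR's quasi-likelihood test at a Benjamini-Hochberg adjusted p under 0.05 over 14436 genes; 7 of 18 had an unadjusted p under 0.05. Of all genes tested, 29.1% were called, 14.1% higher and 15.0% lower in KO, so the members' count lay near the background. The 4 were mt-Rnr1, mt-Nd1, mt-Nd3 and mt-Cytb. Among the 18, 14 had a positive and 4 a negative log2 fold change, with a median of 0.16, against 0.01 over all genes tested. For mt-Rnr1, mt-Nd3 and mt-Cytb all KO libraries lay above all WT libraries, as they did for 10.9% of all genes tested; 12.4% lay below in every KO library, which makes 23.3% without overlap.

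**Figure D3:**
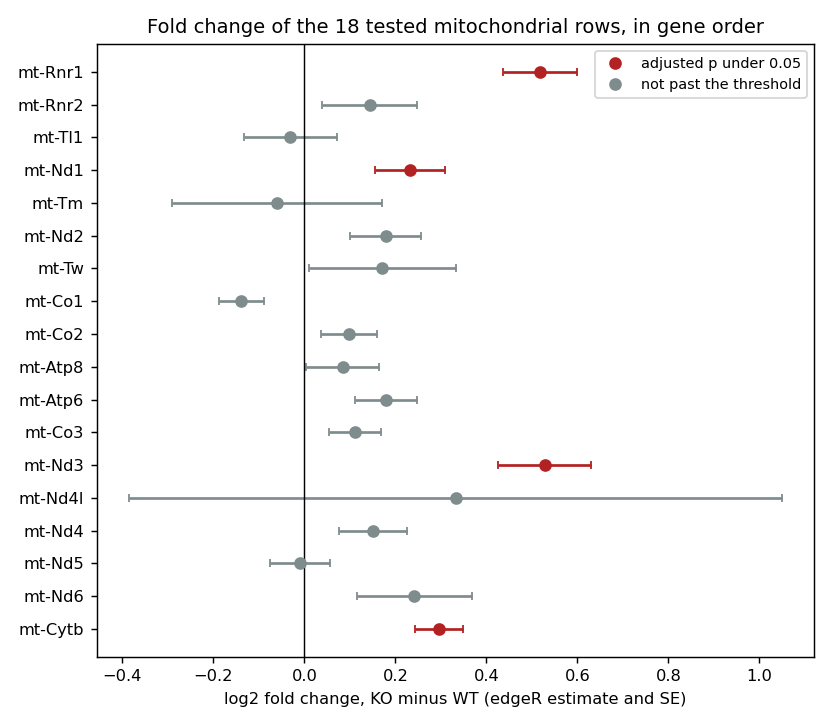
Log2 fold change, KO minus WT (edgeR estimate, bars of 1 SE), of the 18 tested members from top to bottom in gene order; red points passed the test and grey points did not. The red points are mt-Rnr1 (0.52), mt-Nd1 (0.23), mt-Nd3 (0.53) and mt-Cytb (0.30), and the widest bar is that of mt-Nd4l (SE 0.72).

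The small ribosomal RNA rose and the large one did not pass. mt-Rnr1 had 384, 325, 340, 333 and 306 CPM in KO 1 to 5, and 220, 226, 211, 239 and 282 CPM in WT 1 to 5. The lowest KO library lay above the highest WT library. The mean was 338 ± 29.0 CPM in KO and 236 ± 28.0 CPM in WT (SD, n = 5 each), a log2 fold change of 0.52 ± 0.08 (SE; edgeR adjusted p = 0.000525). mt-Rnr2 had 787, 685, 635, 620 and 711 CPM in KO 1 to 5, and 598, 620, 519, 582 and 794 CPM in WT 1 to 5. WT 5 exceeded every KO library, and the log2 fold change was 0.14 ± 0.10 (edgeR adjusted p = 0.345). Without WT 5 it was 0.26 (edgeR adjusted p = 0.0278), and without KO 1 it was 0.090 (edgeR adjusted p = 0.578). Counts of mt-Rnr2 were 2.04 ± 0.19 times those of mt-Rnr1 in KO and 2.63 ± 0.177 times in WT, and the ranges (1.87 to 2.32 in KO, 2.43 to 2.81 in WT) did not overlap. That difference between the 2 RNAs has no test here.

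Of the 7 complex I subunits, mt-Nd3 and mt-Nd1 rose. mt-Nd3 had 56.0, 39.8, 49.9, 45.7 and 50.8 CPM in KO 1 to 5, and 33.3, 33.5, 27.7, 33.6 and 39.8 CPM in WT 1 to 5. The genotypes were apart, although KO 2 at 39.78 CPM barely exceeded WT 5 at 39.75 CPM. Its mean was 48.4 ± 6.07 CPM in KO and 33.6 ± 4.26 CPM in WT, a log2 fold change of 0.53 ± 0.10 (edgeR adjusted p = 0.00223). Its copy Gm28438 also rose (0.60 ± 0.19, edgeR adjusted p = 0.0319), the only call among the 7 close copies, against 29.1% of all genes. Gm28438 matches 345 bases of mt-Nd3 with 1 mismatch, and how shared reads were counted is not known, so it is not a separate result. With both summed, mt-Nd3 was at 0.55 (edgeR adjusted p = 0.00251).

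mt-Nd1 had 974, 869, 956, 912 and 1051 CPM in KO 1 to 5, and 822, 783, 695, 801 and 952 CPM in WT 1 to 5. In KO, 3 libraries lay above the highest WT library, WT 5, and the genotypes overlapped. The mean was 952 ± 68.7 CPM in KO and 811 ± 92.6 CPM in WT, a log2 fold change of 0.23 ± 0.08 (edgeR adjusted p = 0.0396). This call did not hold in 10 of 21 alternatives, among them the fits without KO 1, KO 3, KO 5, WT 1, WT 2, WT 3 or WT 4. In these 10 fits the log2 fold change was 0.19 to 0.26 and the edgeR adjusted p reached 0.0921 with a single library left out and 0.120 without KO 1 and KO 3.

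The other 5 complex I subunits did not pass. mt-Nd2 was at 392 ± 23.1 CPM in KO and 346 ± 43.7 CPM in WT (0.18 ± 0.08, edgeR adjusted p = 0.111), and mt-Nd4 at 777 ± 50.2 CPM in KO and 700 ± 78.4 CPM in WT (0.15 ± 0.08, edgeR adjusted p = 0.166). mt-Nd5 was at 782 ± 47.1 CPM in KO and 786 ± 75.1 CPM in WT (-0.01 ± 0.07, edgeR adjusted p = 0.942), a value whose sign turned under library totals and other settings. mt-Nd6, with 15.3 ± 2.22 CPM in KO and 13.0 ± 2.09 CPM in WT, had a log2 fold change of 0.24 ± 0.13 (edgeR adjusted p = 0.182). mt-Nd4l had 134 to 164 CPM in KO and 0.0505 to 155 CPM in WT, with a log2 fold change of 0.33 ± 0.72 (edgeR adjusted p = 0.777). That value rested on WT 3: without it the log2 fold change was 0.02 ± 0.06 (edgeR adjusted p = 0.825), with the replicate block it was 0.69, and limma-voom gave 2.20 (adjusted p = 0.355). mt-Nd2 passed without WT 5 (0.27, edgeR adjusted p = 0.00517), and mt-Nd2, mt-Nd4 and mt-Nd6 passed with library totals. Without KO 1 and KO 3, mt-Nd6 was at 0.10 (edgeR adjusted p = 0.624).

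mt-Cytb, the single mitochondrially encoded subunit of complex III, rose. It had 810, 783, 782, 785 and 864 CPM in KO 1 to 5, and 648, 654, 598, 641 and 737 CPM in WT 1 to 5. Every KO library lay above every WT library. The mean was 805 ± 35.1 CPM in KO and 656 ± 50.5 CPM in WT, a log2 fold change of 0.30 ± 0.05 (edgeR adjusted p = 0.00129).

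None of the 3 complex IV subunits passed. mt-Co1 had 6664, 6443, 6832, 6554 and 6788 CPM in KO 1 to 5, and 7478, 7343, 6490, 7269 and 8060 CPM in WT 1 to 5. Of the WT libraries, WT 3 alone lay within the KO range. The log2 fold change was -0.14 ± 0.05 (edgeR adjusted p = 0.0566), without WT 3 it was -0.17 (edgeR adjusted p = 0.0103), and without WT 5 it was -0.089 (edgeR adjusted p = 0.179). With library totals in place of TMM scaling it was -0.02 (edgeR adjusted p = 0.766). mt-Co2 was at 1420 ± 77.5 CPM in KO and 1326 ± 116 CPM in WT (0.10 ± 0.06, edgeR adjusted p = 0.265), and mt-Co3 at 1249 ± 62.8 CPM in KO and 1156 ± 95.1 CPM in WT (0.11 ± 0.06, edgeR adjusted p = 0.173). The genotypes overlapped for both. Without WT 5, mt-Co3 passed at 0.17 (edgeR adjusted p = 0.0318) and mt-Co2 was at 0.16 (edgeR adjusted p = 0.0655). Both passed with library totals.

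Neither ATP synthase subunit passed. mt-Atp6 was at 207 ± 12.7 CPM in KO and 182 ± 17.9 CPM in WT (0.18 ± 0.07, edgeR adjusted p = 0.0687), and mt-Atp8 at 317 ± 27.9 CPM in KO and 299 ± 32.1 CPM in WT (0.08 ± 0.08, edgeR adjusted p = 0.482). mt-Atp6 passed without KO 2 (0.21, edgeR adjusted p = 0.0480), without WT 5 (0.24, edgeR adjusted p = 0.0150) and with library totals. mt-Atp8 passed in no fit and ranged between 0.043 without WT 3 and 0.15 without WT 5 when a library was left out. The 3 tested transfer RNAs did not pass either. mt-Tl1 was at 7.15 ± 0.749 CPM in KO and 7.30 ± 0.873 CPM in WT (-0.03 ± 0.10, edgeR adjusted p = 0.862). The log2 fold changes of mt-Tw, 0.17 ± 0.16, and mt-Tm, -0.06 ± 0.23, had edgeR adjusted p-values of 0.636 and 0.883. The signs of mt-Tl1 and mt-Tm turned under library totals.

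The same libraries were often the lowest or highest of their genotype. WT 3 was the lowest WT library for 14 of the 15 ribosomal RNA and protein-coding members, and WT 5 was the highest for all 15. In KO, KO 2 was the lowest for 11 of the 15, KO 5 the highest for 7 and KO 1 for 6. Without WT 5, 8 members were called, all higher in KO, where 26.4% of all genes were called: mt-Rnr1, mt-Rnr2, mt-Nd1, mt-Nd2, mt-Nd3, mt-Cytb, mt-Co3 and mt-Atp6. Library totals in place of TMM scaling called 10 members, all higher in KO, where 38.7% of all genes were called. These were the 8 without mt-Rnr2, and mt-Nd4, mt-Nd6 and mt-Co2. The fits without KO 1 and KO 3 (28.3% of all genes called) and without KO 1 and KO 2 (24.1%) called 3 members each, as did the fit without a filter on low counts (13.6%). The DESeq2 Wald test (28.8%) called 5, the fifth being mt-Co1, lower in KO.

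**Figure D4:**
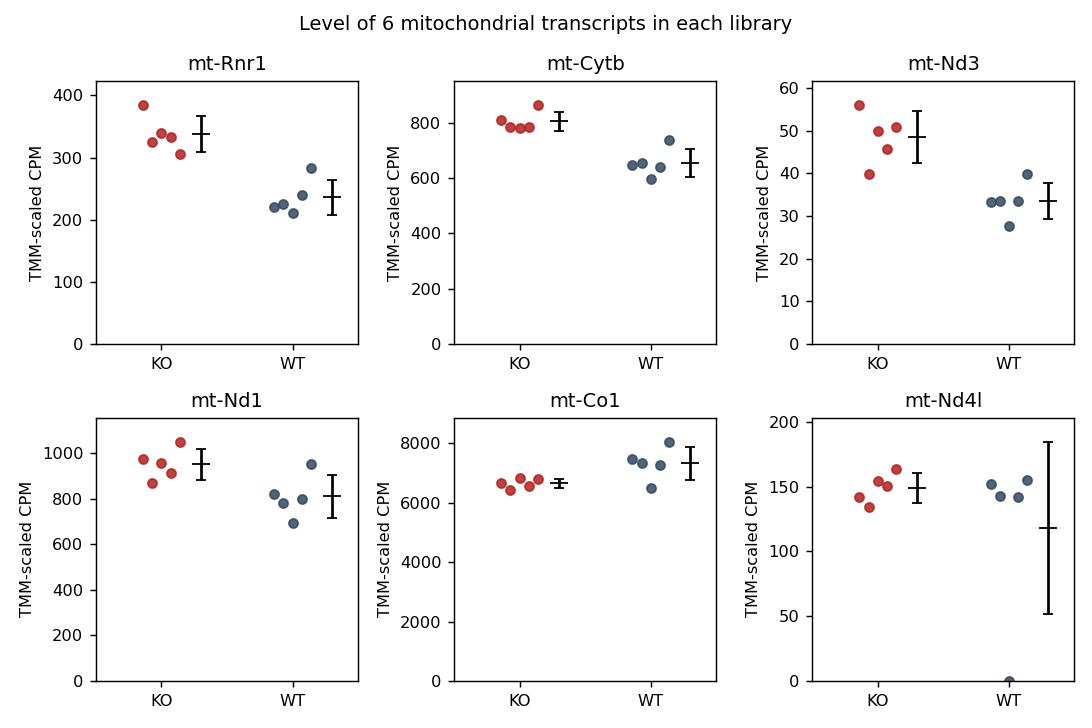
TMM-scaled CPM of mt-Rnr1, mt-Cytb, mt-Nd3, mt-Nd1, mt-Co1 and mt-Nd4l, a point per library (1 to 5 from left to right), KO left of WT, with the mean and SD in black; each axis starts at 0. KO and WT points do not overlap for mt-Rnr1, mt-Cytb and mt-Nd3, and WT 3 stands at 0.0505 CPM for mt-Nd4l.

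Within the mitochondrial counts, several members held shares that did not overlap between genotypes, while the total share of the library overlapped. Shares of all mt- counts need no scaling between libraries, but they sum to 100%, so 1 share cannot fall without others rising. mt-Co1 took 45.0% ± 0.879 of mitochondrial counts in KO and 50.2% ± 0.769 in WT (SD, n = 5 each), with ranges of 43.9% to 45.7% in KO and 48.9% to 51.0% in WT that did not overlap. The shares of 8 of the other 12 protein-coding members lay above those of WT in every KO library, and 4 overlapped. These 8 shares and that of mt-Co1 are parts of the same total, so they are not independent, and shares alone do not show which members moved. The 8 did not rise in equal proportion: mt-Nd3 held 0.326% in KO and 0.229% in WT, a larger relative gain than that of mt-Co2 below. Shares of mt- counts have no background over all genes. On the CPM scale, 2 of the 13 protein-coding members, mt-Nd3 and mt-Cytb, were without overlap, as were 23.3% of all genes tested. Among the 8, mt-Nd1 held 6.43% ± 0.248 in KO and 5.53% ± 0.157 in WT, mt-Cytb 5.44% ± 0.166 in KO and 4.49% ± 0.124 in WT, and mt-Co2 9.59% ± 0.178 in KO and 9.07% ± 0.060 in WT. mt-Rnr1 held 2.28% ± 0.194 in KO and 1.61% ± 0.094 in WT, without overlap, while mt-Rnr2 overlapped.

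Ratios that contain mt-Co1 were apart as well. mt-Cytb counts were 0.121 ± 0.00462 of mt-Co1 counts in KO and 0.0895 ± 0.00224 in WT. Within complex IV, mt-Co1 counts were 4.69 ± 0.174 times those of mt-Co2 in KO and 5.53 ± 0.0687 times in WT. The 12 other messengers together had 1.07 ± 0.0367 times the counts of mt-Co1 in KO and 0.876 ± 0.0224 times in WT. None of these 3 ratios overlapped between genotypes. All 3 contain mt-Co1, so they are not independent of each other or of its share. A ratio does not show which of its parts moved. Tested as single genes, mt-Cytb passed and mt-Co1 and mt-Co2 did not. The ratio of ribosomal RNA to messenger counts, 0.0695 to 0.0837 in KO and 0.0585 to 0.0700 in WT, did overlap. These ratios were chosen after the values were seen and carry no test. As a part of the library, the members other than mt-Co1 made up 0.848% ± 0.0547 in KO and 0.700% ± 0.0719 in WT, ranges that overlapped.

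**Figure D5:**
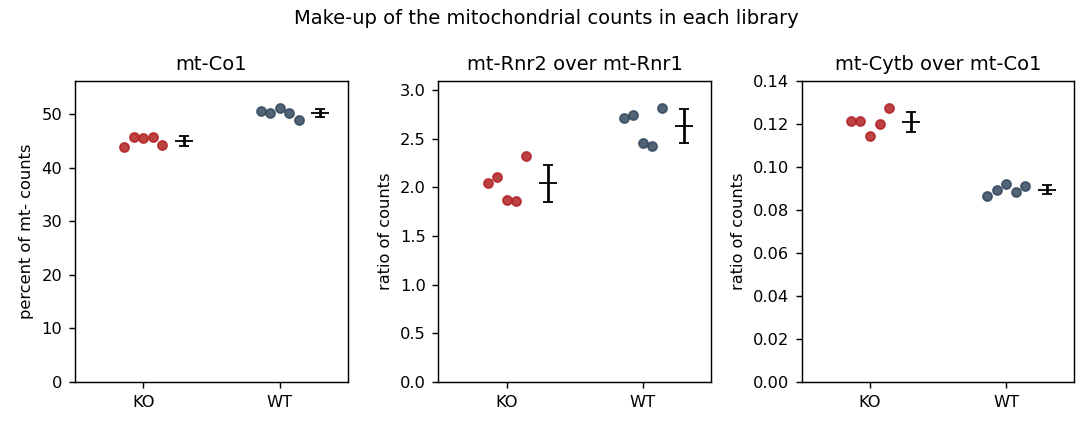
Percent of all mt- counts taken by mt-Co1 (left), and the count ratios of mt-Rnr2 to mt-Rnr1 (middle) and mt-Cytb to mt-Co1 (right), a point per library, KO left of WT, with the mean and SD in black; each axis starts at 0. KO lies below WT in the first and second panels (45.0% against 50.2%, 2.04 against 2.63) and above it in the third (0.121 against 0.0895), without overlap.

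Nuclear genes that copy, transcribe and process mitochondrial DNA and RNA changed in both directions. Of 104 tested genes in 4 lists, 15 rose and 6 fell in KO, which is 20.2% against the background of 29.1%, and the median log2 fold change was 0.07. Among 25 genes of DNA maintenance and transcription, 5 rose and 2 fell. Polrmt, the mitochondrial RNA polymerase, was at 22.7 ± 1.52 CPM in KO and 19.4 ± 1.96 CPM in WT and rose by 0.22 ± 0.08 on the log2 scale (edgeR adjusted p = 0.0459). Tfam, which packages mitochondrial DNA and opens its promoters, was at 21.3 ± 0.898 CPM in KO and 24.0 ± 1.22 CPM in WT and fell, with a log2 fold change of -0.18 ± 0.05 (edgeR adjusted p = 0.0211) and every KO library below every WT library. Tfb2m, the other initiation factor, and Tefm, the elongation factor, did not pass (0.13 and 0.12, edgeR adjusted p = 0.590 and 0.432). The helicase Twnk (0.33), the single-strand DNA-binding protein Ssbp1 (0.20), the nuclease Exog (0.36) and the protease Lonp1 (0.14) rose, and Rnaseh1, which removes RNA from DNA hybrids, fell (-0.23).

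Among 34 genes of RNA processing, stability and decay, 6 rose and 1 fell. Lrpprc, which stabilises mitochondrial messengers, was at 85.8 ± 3.51 CPM in KO and 72.4 ± 1.14 CPM in WT and rose by 0.24 ± 0.04 on the log2 scale (edgeR adjusted p = 0.000407). Its partner Slirp did not pass (0.09 ± 0.13, edgeR adjusted p = 0.642). Pnpt1, the exoribonuclease of mitochondrial RNA decay, which is also induced by interferon, was at 41.8 ± 2.61 CPM in KO and 63.2 ± 3.57 CPM in WT. It was the 1 gene of this list that fell (-0.60 ± 0.05, edgeR adjusted p = 8.33e-06). Hsd17b10, a subunit of mitochondrial RNase P (0.33), the oligoribonuclease Rexo2 (0.25) and the ribosomal RNA methyltransferase Mrm3 (0.36) rose.

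Among 38 genes of transfer RNA maturation and charging, 3 rose and 2 fell. Nars2 (0.37), Gatc (0.26) and the transfer RNA modifier Cdk5rap1 (0.23) rose. Nsun3, which modifies mt-Tm (-0.26), and Kars (-0.34), a synthetase that serves the cytosol as well, fell. Of 7 regulators tested, the coactivator Ppargc1b rose, at 16.0 ± 1.31 CPM in KO and 11.7 ± 1.30 CPM in WT (0.45 ± 0.09, edgeR adjusted p = 0.00201), and the transcription factor Nrf1 fell (-0.20 ± 0.06, edgeR adjusted p = 0.0256). In place of 21 of the 104 genes, 17 passed without KO 1 and KO 3 and 12 without KO 1 and KO 2.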

How the data were processed

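RNA-seq of macrophages gave 10 libraries, 5 KO and 5 WT. Per the file headers, the deposited values are whole-number counts for each gene and FPKM beside them. FPKM as deposited equalled the count scaled by library total and by the whole gene span, for members with an FPKM above 0, and was used only for that length; 5 FPKM columns headed SI were not used. CASAVA 1.8, TopHat2 2.0.6 and the builds mm10 and GRCm39 are named, with no role, per the submitters' processing notes. The sources used here give no counter, annotation or strand setting.

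In R 4.3.3, edgeR 4.0.16 compared KO with WT by its quasi-likelihood F test. Library sizes carried TMM factors, and filterByExpr (minimum count 10) kept 14436 genes with 99.9% of counts, over which p-values were adjusted by Benjamini-Hochberg; the threshold was 0.05. The SE is the log2 fold change divided by the square root of F. CPM are TMM-scaled. The biological coefficient of variation was 12.8%. The procedure was also run on simulated counts in which every gene had the same coefficient of variation, 12.8%. Real genes need not share 1 value, and no result here rests on that run. Nuclear copies were sought with blastn 2.17.0 in GENCODE M21 transcripts. Alternatives were DESeq2 1.42.0 size factors and Wald test, limma-voom (limma 3.58.1), library totals, no filter, 50 counts in 5 libraries, scaling without mt- rows, the replicate number as a block, and each library left out. Sums with nuclear copies and fits without KO 1 and KO 3 or KO 1 and KO 2 were added after the data were seen. Every tested mt- gene is named; of the nuclear lists, Polrmt, Tfam, Tfb2m, Tefm, Lrpprc and Slirp, and per list up to 4 called genes with the smallest p in each direction. The members and lists were chosen with earlier results of these data known.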

Additional observations from a re-analysis of the deposited data

Results flagged for a closer look

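Among 44 sets of 5 libraries checked for a sample far from the rest, 3 held one, and chance alone marks about 1 in 20. mt-Nd4l in WT 3 was at 0.0505 CPM, far from the nearest WT library at 142 CPM, a gap of 0.912 of the range. mt-Nd5 in KO 5 was at 864 CPM, with the nearest KO library at 771 CPM and a gap of 0.820 of the range. The ribosomal RNA share of KO 1 was 0.125% of its library, with the nearest KO library at 0.104% and a gap of 0.766 of the range.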

How the results depend on the processing

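mt-Rnr1 (0.45 to 0.64), mt-Nd3 (0.43 to 0.65) and mt-Cytb (0.27 to 0.41) stayed higher in KO and past the threshold in all 21 alternatives, with edgeR, DESeq2 or limma-voom adjusted p-values up to 0.0162. Called members numbered 10 with library totals, 5 with the DESeq2 Wald test (mt-Co1 lower), 3 without a filter, and 3 to 8 with a library left out, in place of 4. Called nuclear genes of mitochondrial gene expression numbered 49 with library totals (47 higher, 2 lower), 12 without KO 1 and 2, and 14 to 24 with a library left out, in place of 21. Library totals called 5592 of all genes (4231 higher, 1361 lower) in place of 4200 (2036 higher, 2164 lower), and moved the median log2 fold change to 0.12 over all genes and 0.28 over members. Replicate numbers did not pair the libraries (same-number correlations -0.11 to 0.18); the replicate block called 4 members, 3780 genes and 16 listed genes.

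Signs turned for 3 members that were called in none of the fits; the cause was not tested. mt-Tl1 became 0.085 with library totals, 0.015 without KO 1 and 2, and -0.091 to 0.028 with a library left out. mt-Tm became 0.055 with library totals, 0.034 without KO 1 and 2, and -0.18 to 0.11 with a library left out. mt-Nd5 became 0.11 with library totals, 0.016 without a filter, 0.0021 with the 50-count filter, 0.0038 with scaling without mt- rows, 0.0036 with copies summed, 0.015 without KO 1 and 3, 0.028 without KO 1 and 2, and -0.050 to 0.045 with a library left out. The difference in mitochondrial share, 0.137 percentage points, was 0.089 to 0.176 with a library left out. Most transfer RNAs lay near or under the floor of 3 counts, so these libraries show little of them. Why their counts were so low was not tested.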
